A study of Homo sapiens with 14 samples.

Results

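The comparison described here set Jurkat cells carrying a guide against KSR2 beside Jurkat cells carrying a non-targeting guide. Its members were all 6 libraries that the titles assign to a KSR2 guide, 3 of guide 1 and 3 of guide 2, and the 2 libraries of the non-targeting control (NT), so that 8 of the 14 libraries of the series entered it. The guides were weighted equally, and the change reported is the mean of both guides minus NT on the log2 scale. Jurkat is an established line of T-cell acute lymphoblastic leukemia that expresses the transcription factor TAL1. Per the labels, RNA was taken with an RNeasy kit from transduced cells and polyadenylated RNA was sequenced. The titles call all 3 groups CRISPR knockout, the series design speaks of CRISPR interference, and the names of the NT libraries carry the letters shRNA. The guide sequences, the time in culture, and whether the cells were clones or pools are not stated by the labels. They name the libraries of a group as replicates without saying that they came from separate cultures. The p-values and intervals rest on the spread between libraries within groups, which may be technical. That spread was estimated in a fit of all 14 libraries, which include those of the DMSO and KSR inhibitor groups.

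KSR2 (kinase suppressor of RAS 2) belongs with KSR1 to a family of scaffold proteins that bring RAF, MEK and ERK kinases together and so aid the passage of a signal from RAS to ERK. KSR2 has also been tied to AMPK, the kinase that senses a fall in cellular energy, and loss of the gene in animals disturbs energy balance. ERK in turn acts on immediate early genes, which respond within minutes, and on feedback genes of the dual-specificity phosphatase, Sprouty and SPRED families, which damp the cascade.

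Sequencing depth was similar in the 3 groups. Total counts were 25794010 and 34535929 in NT, 33919545 to 38801454 with guide 1 and 29979565 to 42717502 with guide 2. Mitochondrial transcripts took 1.85 to 2.50% of counts in NT, 1.76 to 2.37% with guide 1 and 1.15 to 2.71% with guide 2. Levels are given in CPM (counts scaled to a common library total) on TMM-scaled library sizes. Pairs of replicates differed by more than sampling noise, with a chi-square per degree of freedom of 7.53 to 26.

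The gene that both guides target lies on the minus strand of chromosome 12 (GRCh38, 117453012 to 117968983). The 250 bases before its start are shown because KSR2 is the gene both guides target; they come from the RefSeq table for GRCh38.p14, chr12:117968991-117969240, minus strand, read 5′ to 3′. The capitals mark the 1 E-box in the window (CANNTG, searched on both strands), the class of motif that TAL1 and its partners can bind.

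KSR2 upstream: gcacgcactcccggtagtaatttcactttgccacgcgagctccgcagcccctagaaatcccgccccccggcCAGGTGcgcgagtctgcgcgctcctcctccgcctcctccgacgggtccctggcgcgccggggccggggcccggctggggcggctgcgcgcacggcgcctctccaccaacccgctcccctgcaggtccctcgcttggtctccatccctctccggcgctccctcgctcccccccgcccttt

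An E-box is common in such windows, since 61.8% of the 35116 upstream windows of the same length hold at least 1. The window holds 0 GATA motifs (GATA, both strands), which 45.6% of windows hold, and 3 GC boxes (GGGCGG, both strands), which 42.6% hold at least once. Its GC content is 74%, against a median of 58% over all windows. These are matches of letters and are no evidence of binding, and the labels do not say where either guide acts.

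KSR2 transcript was nearly lost with both guides. Its level was 30.1 and 28.97 CPM in the NT libraries, 0.664, 0.453 and 0.507 CPM with guide 1, and 0.822, 0.730 and 0.746 CPM with guide 2. The groups lay far apart, and all 6 guide libraries were below both NT libraries. Behind these levels were 1926 counts over the 2 NT libraries, 66 over the 3 guide 1 libraries and 89 over the 3 guide 2 libraries. The remaining transcript was 1.83% of the NT level with guide 1 and 2.60% with guide 2. The log2 change with both guides was -5.51 (SE 0.12, 95% interval -5.77 to -5.25), a 45.5-fold lower level, with an adjusted p of 1.65e-16 in edgeR's quasi-likelihood test. Each guide alone gave a log2 change of -5.75 (guide 1) and -5.27 (guide 2). The residual level was higher with guide 2 in every library, but the difference between guides, 0.49 on the log2 scale (SE 0.23), was not called (edgeR adjusted p = 1.00). Protein was not measured in these files.

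KSR1, the other scaffold of the family, did not pass the test. It stood at 30.9 and 29.8 CPM in NT, 29.3, 29.4 and 28.3 CPM with guide 1, and 28.8, 27.0 and 29.3 CPM with guide 2. All 6 guide libraries were just below the lower NT library, by less than the error of the fit: the log2 change was -0.08, with an interval of -0.25 to 0.09 (edgeR adjusted p = 0.989). A change of KSR1 beyond 1.19-fold in either direction therefore lies outside the 95% interval. Per kilobase of exon, the NT level was 1.61 CPM for KSR2 and 2.49 CPM for KSR1. With the guides the level per kilobase was 0.0296 and 0.0419 CPM for KSR2 and 2.38 and 2.33 CPM for KSR1, so the mean level of KSR1 transcript per kilobase in the guide cells was close to that of the control.

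**Figure D1:**
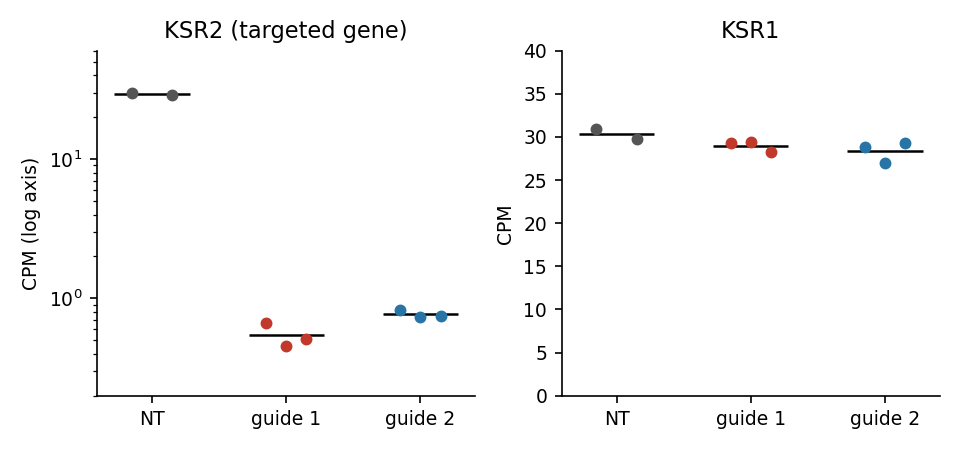
Level of KSR2 (left, log axis) and KSR1 (right, axis from 0) in CPM in each library of NT, guide 1 and guide 2; points are libraries and bars are group means. KSR2 fell from about 29.5 CPM in NT to under 0.83 CPM in every guide library, while KSR1 stayed between 27.0 and 30.9 CPM in all 8.

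Over the rest of the transcriptome few genes passed the test. Of 18963 genes tested, 3 were called lower and 0 higher with both guides at an adjusted p under 0.05, which is 0.0158% of genes. Guide 1 alone gave 1 call (0.00527%), KSR2. Guide 2 alone gave 2 calls (0.0105%), KSR2 and GNPNAT1. At an unadjusted p under 0.05 edgeR gave 398 genes higher and 390 lower, 4.16% of those tested, fewer than the 948 that a uniform spread of p-values would give. Genes whose 6 guide libraries all lay above both NT libraries numbered 836 (4.41%), and 977 (5.15%) lay wholly below.

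GNPNAT1, which encodes the acetyltransferase of the hexosamine pathway that makes the sugar nucleotide for protein glycosylation, was called with both guides only through guide 2. It lies on chromosome 14 (52775194 to 52791668). Its level was 50.8 and 51.3 CPM in NT, 55.0, 48.7 and 53.2 CPM with guide 1, and 22.4, 22.9 and 26.6 CPM with guide 2. The guide 1 libraries lay on both sides of NT, whereas the guide 2 libraries were all below every other library. The mean of the guides gave a log2 change of -0.53 (SE 0.08, edgeR adjusted p = 0.0458), made of 0.04 with guide 1 and -1.09 with guide 2. The difference between the guides was itself -1.12 (SE 0.08, edgeR adjusted p = 6.40e-06). It was the only gene called between the guides, 0.00527% of those tested. With the 6 guide libraries taken as 1 group the call with both guides was lost (log2 change -0.42, edgeR adjusted p = 0.982). The other 11 members of the hexosamine list tested included no call. PGM3, which makes the next phosphosugar of that pathway, had a log2 change of 0.17 (-0.04 to 0.39), and GFPT1, its entry enzyme, one of -0.01 (-0.15 to 0.12).

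The third call was ENSG00000278996, a long intergenic RNA gene on chromosome 21 (8197620 to 8227646) with no symbol in the name table. It was barely expressed and differed between the NT libraries themselves, at 0.290 and 2.25 CPM. The guide 1 libraries had 0.0237, 0.0799 and 0 CPM, and the guide 2 libraries 0.0305, 0.0261 and 0.132 CPM. All guide libraries were below NT, and the log2 change was -4.73 (SE 0.88, edgeR adjusted p = 0.0136). Without the second NT library the log2 change was -2.51 and the call was lost (edgeR adjusted p = 0.975).

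The changes of the other genes were small where expression was sufficient to measure them. The median log2 change over all tested genes was -0.0044, the middle 90% of genes lay between -0.30 and 0.38, and 9200 genes were above 0 and 9763 below. Past 2-fold in the point estimate were 112 genes, of which 108 had a mean under 1 CPM. Of the 11218 genes of at least 5 CPM, 2 were past 2-fold, KSR2 and RPL41P1, and 5 were past 1.5-fold, the others being RPL41, RPS27P3 and ESD. The ribosomal protein gene RPL41 ranged from 69.0 to 92.7 CPM in NT and from 80.4 to 197 CPM in the guide libraries, which overlapped. RPL41P1, a processed copy of it that can share its reads, ranged from 16.1 to 18.9 CPM in NT and from 15.7 to 73.3 CPM in the guide libraries. Neither of the 2 was called, and the guide libraries differed widely among themselves.

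**Figure D2:**
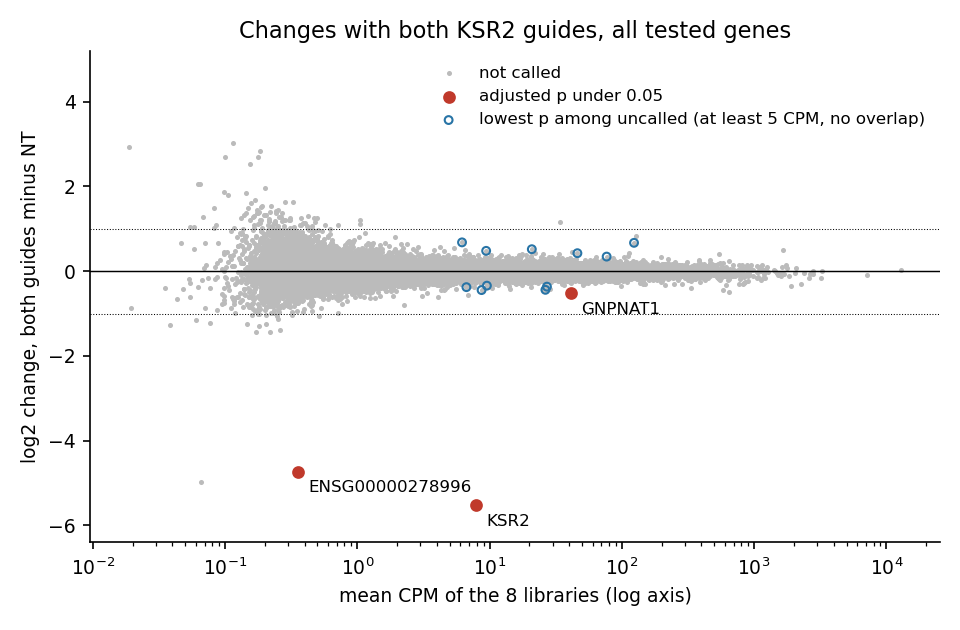
Log2 change of both guides minus NT (vertical axis) against the mean CPM of the 8 libraries (log axis) for all 18963 genes tested; red points are the 3 called genes, open circles the uncalled genes of at least 5 CPM with the lowest p and no overlap between groups, and dotted lines mark 2-fold. The spread narrows with level, and KSR2 at -5.51 lies far below every other gene of at least 5 CPM.

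How large a change the uncalled genes could still hold is given by the 95% interval of each log2 change. A gene is called bounded within k-fold here when its whole interval lies inside that limit in both directions. Over all tested genes 16446 (86.7%) were bounded within 2-fold and 13462 (71%) within 1.5-fold. Within 2-fold in each guide taken alone were 15369 genes (81%). The median half-width of the interval was 0.25 on the log2 scale.

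The bounds followed the level of expression. Of 4555 genes under 1 CPM, 46.1% were bounded within 2-fold and 3.69% within 1.5-fold. Of 3190 genes at 1 to 5 CPM, 98.5% were bounded within 2-fold and 70.6% within 1.5-fold. Among 2968 genes at 5 to 20 CPM, 97.1% were bounded within 1.5-fold. Among 5951 genes at 20 to 100 CPM that share was 99.1%, and among 2299 genes over 100 CPM it was 98.4%. Most genes at or above 5 CPM were thus bounded to small changes, and for many genes under 1 CPM a difference of 2-fold was not detectable at this depth. The change needed to pass the adjusted threshold in the same fit was larger than the bound: its median was 5.01-fold under 1 CPM, 2.17-fold at 1 to 5 CPM, 1.61-fold at 5 to 20 CPM, 1.45-fold at 20 to 100 CPM and 1.40-fold over 100 CPM. The bounds also depend on the 2 NT libraries. RPL39, bounded within 2-fold, had a log2 change of 1.17 without the first NT library. HMGB2, also bounded within 2-fold, had one of 0.87 without the second.

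**Figure D3:**
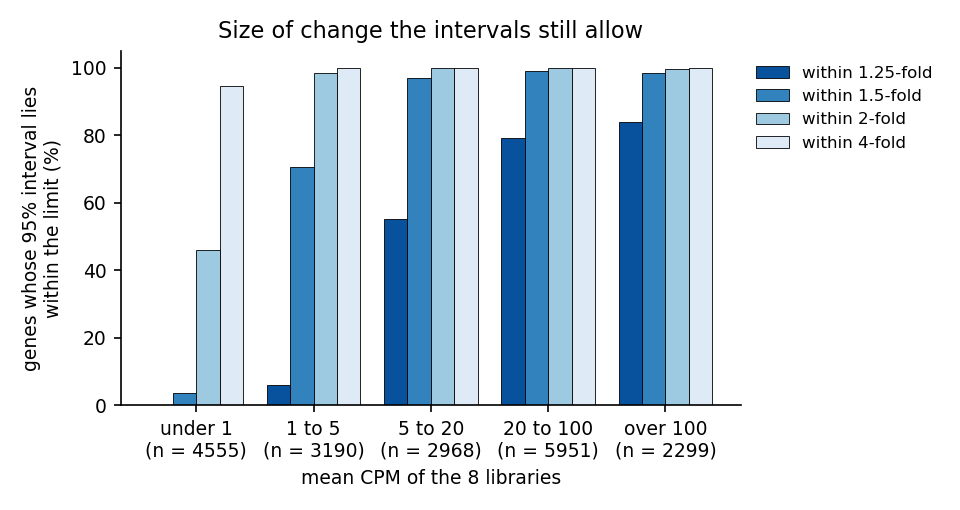
Percentage of tested genes (vertical axis, from 0) whose 95% interval lies within each of the 4 fold limits of the legend, by mean CPM of the 8 libraries. Within 2-fold the share is 46.1% under 1 CPM and at least 98.5% in every bin from 1 CPM up.

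Of the 11218 genes of at least 5 CPM, 11206 were bounded within 2-fold and 12 were not. KSR2 was 1 of the 12. RPL41, RPL41P1 and RPS27P3 were among the others, with 5 mitochondrial genes of the respiratory chain and ATP synthase (MT-ND1, MT-ND2, MT-ND4, MT-ND5 and MT-ATP6), the mitochondrial pseudogene MTATP6P1, the cytochrome oxidase subunit gene COX7B and the prefoldin subunit gene PFDN2. MT-ATP6 stood at 1060 and 382 CPM in NT, 920, 140 and 578 CPM with guide 1, and 220.0, 218 and 1121 CPM with guide 2. Its log2 change was -0.43 with an interval of -1.82 to 0.95, and libraries of 1 group differed more than the groups did. PFDN2, in contrast, stood at 27.9 and 23.9 CPM in NT and between 23.5 and 32.9 CPM in the guide libraries. Its interval still ran from -1.14 to 1.45, in a fit whose spread is estimated over all 14 libraries. Which libraries widened it was not tested.

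The uncalled genes nearest to the threshold, among those of at least 5 CPM whose groups did not overlap, differed by less than 1.7-fold. Higher in all guide libraries was CCDC28A, with 16.5 and 15 CPM in NT, 23.3, 21.3 and 21.1 CPM with guide 1 and 24.8, 21.7 and 23.1 CPM with guide 2. Its log2 change was 0.52 (0.34 to 0.69), 0.48 with guide 1 and 0.56 with guide 2, and edgeR's adjusted p was 0.0609. ESD, the esterase that completes the disposal of formaldehyde through glutathione, had 76.8 and 94.2 CPM in NT, 151, 123 and 160 CPM with guide 1 and 151, 124 and 109 CPM with guide 2. Its log2 change was 0.67 (0.40 to 0.94; edgeR adjusted p = 0.203), the largest among genes of at least 20 CPM with separated groups in this set, and its interval stayed within 2-fold. RPL7P9 (0.48), RPS27P3 (0.68), SFT2D1 (0.42) and TAF9 (0.34) completed the higher set on the log2 scale. RPL7P9 and RPS27P3 are processed pseudogenes, whose reads can be shared with their parent genes. SFT2D1 was at 0.24 without the first NT library and at 0.65 without the second.

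Lower in all guide libraries was AK4, a mitochondrial adenylate kinase that balances adenine nucleotides, with 32.1 and 33.1 CPM in NT, 23.5, 25 and 23.4 CPM with guide 1 and 26, 27.0 and 27.0 CPM with guide 2. Its log2 change was -0.37 (-0.50 to -0.23; edgeR adjusted p = 0.0899). JUN, a subunit of the AP-1 transcription factor and an immediate early gene, had 11.7 and 11 CPM in NT, 8.20, 8.63 and 8.79 CPM with guide 1 and 9.53, 9.47 and 9.04 CPM with guide 2. Its log2 change was -0.34 (-0.51 to -0.17; edgeR adjusted p = 0.901). MYLIP, a ubiquitin ligase, had a log2 change of -0.45, the retinol transporter STRA6 one of -0.38 and the aldolase gene ALDOC one of -0.44. Without the first NT library MYLIP was at -0.27 and ALDOC at -0.27. None of these genes passed the test with both guides, and the same 2 NT libraries stand behind all of them. Of these genes DESeq2 called CCDC28A, ESD, RPL7P9 and AK4 (adjusted p = 9.49e-05, 0.00565, 0.0209 and 2.24e-05). Outside this set it also called ID1 and HSPA6, at log2 changes of -0.62 and -0.82 (DESeq2 adjusted p = 0.00944 and 0.0247). In edgeR these 2 were not called (adjusted p = 0.203 and 0.106).

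The genes that code for the cascade around KSR2 were bounded within narrow limits. Values given after a gene name from here on are log2 changes of both guides minus NT, with 95% intervals in brackets. All 21 listed genes were tested, 0 were called, and all 21 were bounded within 1.5-fold. The log2 changes ran from -0.22 (MAP2K2) to 0.15 (NRAS), with a median of -0.03. The widest interval, that of HRAS, reached 1.35-fold. In all, 5 genes lay wholly below NT and 1 wholly above, against 5.15% and 4.41% of all genes tested.

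Among the RAS genes, NRAS had 133 and 130 CPM in NT, 140, 141 and 153 CPM with guide 1 and 138, 146 and 157 CPM with guide 2, a log2 change of 0.15 (-0.00061 to 0.30). HRAS was at -0.10 (-0.44 to 0.23). The RAF kinases, which KSR proteins resemble and pair with, included ARAF at -0.13 (-0.36 to 0.10) and BRAF at 0.01 (-0.15 to 0.16). BRAF stood at 72.7 and 78.0 CPM in NT and between 70.7 and 80.5 CPM in the guide libraries, a range that included both NT values.

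Of the MEK genes, MAP2K2 had the lowest p of the list. It had 164 and 154 CPM in NT, 131, 129 and 129 CPM with guide 1, and 141, 143 and 145 CPM with guide 2. All guide libraries were below NT, guide 1 more than guide 2, and the log2 change of -0.22 (-0.36 to -0.09) did not pass the adjusted threshold (edgeR adjusted p = 0.964). MAP2K1 was at -0.06 (-0.23 to 0.11). The ERK gene MAPK3 was at 0.03 (-0.26 to 0.31).

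The adaptors that connect receptors to RAS were SHC1 at -0.21 (-0.40 to -0.01) and GRB2 at -0.16 (-0.33 to 0.02), both wholly below NT and neither called. The exchange factors SOS1, SOS2 and RASGRP1, which load RAS with GTP, were at -0.0029, 0.00024 and 0.02. The GTPase-activating proteins NF1 and RASA1, which switch RAS off, were at 0.05 (-0.09 to 0.19) and 0.01 (-0.16 to 0.17).

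**Figure D4:**
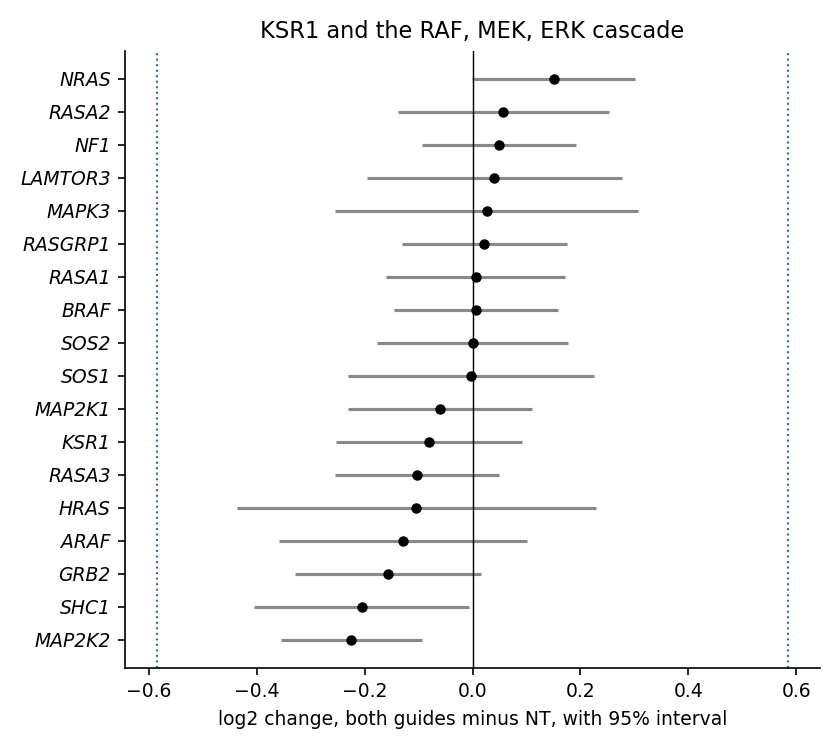
Log2 change of both guides minus NT (points) with 95% interval (lines) for KSR1 and other genes of the RAS, RAF, MEK and ERK cascade, ordered by change; dotted lines mark 1.5-fold. Every interval shown lies inside the dotted lines, and the points run from -0.22 for MAP2K2 to 0.15 for NRAS.

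Genes of proteins known to bind KSR scaffolds were bounded as closely. All 24 listed genes were bounded within 1.5-fold, 0 were called, and the changes ran from -0.11 (YWHAB) to 0.14 (CSNK2B) with a median of -0.03. The 14-3-3 genes YWHAH, YWHAQ and YWHAZ, whose proteins hold KSR in the cytoplasm, were at 0.08, 0.06 and -0.02. MARK3, a kinase that creates a 14-3-3 binding site on KSR, was at -0.05 (-0.18 to 0.08). The chaperone genes HSP90AB1 and CDC37 were at -0.10 (-0.28 to 0.08) and -0.09 (-0.32 to 0.15). The calcineurin subunit PPP3CA, which acts on KSR2, was at -0.05 (-0.23 to 0.14).

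Transcripts that report ERK activity were lower on balance by small amounts, and 0 of the 17 tested were called. The median was -0.13, with 13 genes below 0 and 4 above, and 16 were bounded within 2-fold. Without the second NT library the median was -0.07. DUSP6, the phosphatase gene often read as a gauge of ERK activity, had 2.43 and 3.33 CPM in NT and 2.59 to 3.26 CPM in the guide libraries. The guide values lay inside the NT range, with a change of 0.06 (-0.28 to 0.39). SPRY2, a feedback inhibitor of receptor signalling, had 28.1 and 30.1 CPM in NT, 23.2, 23.4 and 25.6 CPM with guide 1 and 25.8, 27.6 and 27.2 CPM with guide 2. Its guide libraries were all below NT, with a change of -0.20 (-0.37 to -0.02; edgeR adjusted p = 0.989). SPRED2 was at -0.13 (-0.29 to 0.03), SPRED1 by 0.06 (-0.09 to 0.20), DUSP4 by 0.35 (-0.28 to 0.99) and ETV5, an ETS factor induced through ERK, by 0.10 (-0.14 to 0.34). LIF, a cytokine gene under 0.41 CPM in all 8 libraries, was the 1 member not bounded within 2-fold.

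Immediate early genes gave a median of -0.10 over 28 tested, with 25 below 0, 3 above and 0 called. Without the first NT library the median was -0.07. JUN, described above, had the lowest p. EGR1, a zinc finger factor, had 17.1 and 15.3 CPM in NT, 15.6, 15.6 and 15.1 CPM with guide 1 and 10.9, 13.2 and 13.1 CPM with guide 2, and its change was -0.22 (-0.43 to -0.01). The guide 1 libraries overlapped NT and the guide 2 libraries did not. FOS, the partner of JUN in AP-1, was under 1 CPM in all 8 libraries and had a log2 change of 0.18 (-0.31 to 0.66). IER2 was at -0.12 (-0.30 to 0.06), JUNB by -0.18 (-0.38 to 0.02) and JUND by -0.16 (-0.33 to 0.01). EGR2 and NR4A2, both under 0.7 CPM, were not bounded within 2-fold.

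The TAL1 circuit, the set of transcription factors that holds the leukemic program in such cells, was bounded within 2-fold apart from LYL1. TAL1 itself had 337 and 343 CPM in NT, 356, 353 and 360 CPM with guide 1 and 376, 373 and 353 CPM with guide 2. All guide libraries were above NT by a little, with a change of 0.09 (-0.05 to 0.23). Its partners GATA3, RUNX1 and MYB were at -0.23 (-0.47 to 0.02), -0.08 (-0.23 to 0.07) and -0.12 (-0.33 to 0.08), and the E proteins TCF3 and TCF12 by -0.11 and -0.05. ALDH1A2, a target of the circuit, had 1064 and 1032 CPM in NT and 861 to 1064 CPM in the guide libraries, with a change of -0.11 (-0.29 to 0.06). LYL1, a close relative of TAL1, stood at 0.579 and 0.661 CPM in NT and at 0.293 to 0.609 CPM in the guide libraries, with a change of -0.68 (-1.29 to -0.07). Over the 18 tested genes the median was -0.09, with 15 below 0 and 0 called.

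Genes of AMPK and energy sensing showed no common direction. Of 18 tested, 9 were above 0 and 9 below, the median was -0.00082, 0 were called and all 18 were bounded within 2-fold. The catalytic subunits PRKAA1 and PRKAA2 were at -0.07 (-0.22 to 0.08) and -0.07 (-0.49 to 0.34). The regulatory subunit PRKAG2 had 24.1 and 23.0 CPM in NT and 25.2 to 27.6 CPM in the guide libraries, all above NT, with a change of 0.15 (-0.01 to 0.32). FLCN, a partner of AMPK in nutrient sensing, was at 0.23 (0.03 to 0.43; edgeR adjusted p = 0.989), and the upstream kinase STK11 by -0.04 (-0.29 to 0.22). Fatty acid oxidation, which AMPK favours, had a median of -0.00064 over 20 genes, all bounded within 2-fold. CPT1A, its rate-setting enzyme, had 61.9 and 67.6 CPM in NT and 56.5 to 66.6 CPM in the guide libraries, a change of -0.09 (-0.26 to 0.08).

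Glycolysis and hypoxia-response genes stood lower on balance, although 0 of 32 were called. The median was -0.12, with 25 below 0 and 7 above, and the changes ran from -0.44 (ALDOC) to 0.30 (LDHB). In all, 9 lay wholly below NT and 0 wholly above, against 5.15% and 4.41% of all genes tested. ENO1, the enolase of glycolysis, had 717 and 738 CPM in NT, 563, 513 and 509 CPM with guide 1 and 650, 621 and 620 CPM with guide 2. The guide 1 libraries were the lowest and the guide 2 libraries lay between them and NT. Its change was -0.33 (-0.53 to -0.14; edgeR adjusted p = 0.964), -0.46 with guide 1 and -0.21 with guide 2. ALDOC had 36.7 and 29.2 CPM in NT, 25.1, 22.4 and 23.0 CPM with guide 1 and 26.9, 24.2 and 24.0 CPM with guide 2. HK2, the inducible hexokinase, had 66.0 and 63.2 CPM in NT and 50.9 to 61.3 CPM in the guide libraries, with a change of -0.24 (-0.40 to -0.07). BNIP3, a mitophagy receptor induced by hypoxia, had 57.9 and 57.3 CPM in NT and 45.9 to 50.9 CPM in the guide libraries, with a change of -0.27 (-0.45 to -0.09). GAPDH and PGK1, which belong to the same pathway, overlapped between groups, with changes of -0.17 (-0.44 to 0.10) and 0.02 (-0.18 to 0.21). All 32 were bounded within 2-fold and 30 within 1.5-fold.

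Lipid synthesis gave similar small values. Of 22 cholesterol genes, 19 were below 0, 7 lay wholly below NT and 0 wholly above, against 5.15% and 4.41% of all genes tested, with a median of -0.11, 0 called and all 22 bounded within 1.5-fold. NSDHL, a late step of the pathway, had 18.2 and 19.6 CPM in NT and 14.1 to 17.7 CPM in the guide libraries, a change of -0.26 (-0.45 to -0.07). The 12 genes of fatty acid synthesis had a median of -0.14, and 5 lay wholly below NT and 0 wholly above, against the same 5.15% and 4.41%. SCD, the stearoyl-CoA desaturase, had 971 to 1029 CPM in NT and 762 to 918 CPM in the guide libraries, all lower, a change of -0.22 (-0.40 to -0.04; edgeR adjusted p = 0.989). FASN, the synthase itself, was at -0.05 (-0.30 to 0.21). Leaving out the first NT library took the median of the fatty acid synthesis list to -0.06.

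Growth and division genes were bounded within 2-fold throughout. DNA replication had a median of -0.0075 over 28 genes, all within 1.5-fold, with MCM4, a helicase subunit, at 0.13 (-0.04 to 0.30). Mitosis genes had a median of -0.05 over 24, of which 6 lay wholly below NT and 1 above, against 5.15% and 4.41% of all genes tested. That median was -0.02 without guide 2 replicate 1, -0.08 without the second NT library and -0.09 without guide 2 replicate 3. PLK1, a mitotic kinase, had 146 and 140 CPM in NT and 116 to 133 CPM in the guide libraries, a change of -0.20 (-0.35 to -0.04; edgeR adjusted p = 0.989), while CCNB1, the mitotic cyclin, was at 0.05 (-0.15 to 0.26). G1 cyclins, their kinases and inhibitors had a median of -0.08 over 19. CDK6, which dominates that list at 1175 and 1253 CPM in NT, was at 0.01 (-0.19 to 0.21). Ribosome biogenesis genes had a median of -0.03 over 27.

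Cell death and stress genes included no call. The BCL2 family had a median of 0.04 over 15, and of -0.03 without the second NT library and 0.11 without the first. BCL2L1, which encodes the survival protein BCL-XL, had 112 and 113 CPM in NT and 92.8 to 104 CPM in the guide libraries, a change of -0.19 (-0.36 to -0.03). MCL1, another survival factor, had 157 and 160 CPM in NT and 162 to 184 CPM in the guide libraries, a change of 0.14 (-0.0046 to 0.28). These survival genes thus stood on opposite sides of NT without overlap, and neither was called. Of the 15 family members, 4 lay wholly above NT and 2 wholly below, against 4.41% and 5.15% of all genes tested. Targets of p53 had a median of -0.03 over 24, all within 1.5-fold. Interferon-response genes had a median of -0.01 over 27, amino acid response genes one of -0.06 over 23, and FOXO-linked genes one of -0.07 over 23.

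No gene of T-cell identity was called. The 22 genes of the T-cell receptor complex and its signalling had a median of -0.04, with CD3E at -0.19 (-0.56 to 0.18), LCK at -0.04 (-0.24 to 0.16) and ZAP70 at -0.01 (-0.21 to 0.18). Their changes ran from -0.21 (CD4) to 0.41 (TRBC2, -0.03 to 0.86), and the TRBC2 libraries overlapped between groups. Of 17 NOTCH targets 0 were called, 16 were bounded within 2-fold and 13 within 1.5-fold. HEY1, whose interval reached 2.84-fold, was the member not bounded within 2-fold. HES1, a repressor induced by NOTCH, had 2.03 and 2.12 CPM in NT and 1.10 to 1.78 CPM in the guide libraries, a change of -0.47 (-0.80 to -0.15; edgeR adjusted p = 0.989), and NOTCH1 was at 0.09 (-0.07 to 0.26).

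The 22 lists together held 481 distinct genes, of which 456 were tested and 1, GNPNAT1, was called. Of the 456, 98.9% were bounded within 2-fold and 92.1% within 1.5-fold, against 86.7% and 71% of all genes tested. Unadjusted p-values under 0.05 made up 8.33% of them, against 4.16% of all genes tested. The list medians ran from -0.14 to 0.04, and the median of the 456 genes was -0.05, against -0.0044 over all genes. The lists were chosen with earlier results of these data known, and the listed genes are mostly well expressed, so these shares are descriptions. The medians of 8 lists turned sign in at least 1 of 17 alternative settings: AMPK, fatty acid oxidation, ribosome biogenesis, DNA replication, BCL2 family, interferon, NOTCH and hexosamine. Over all lists and settings the medians ran from -0.17 to 0.11.

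**Figure D5:**
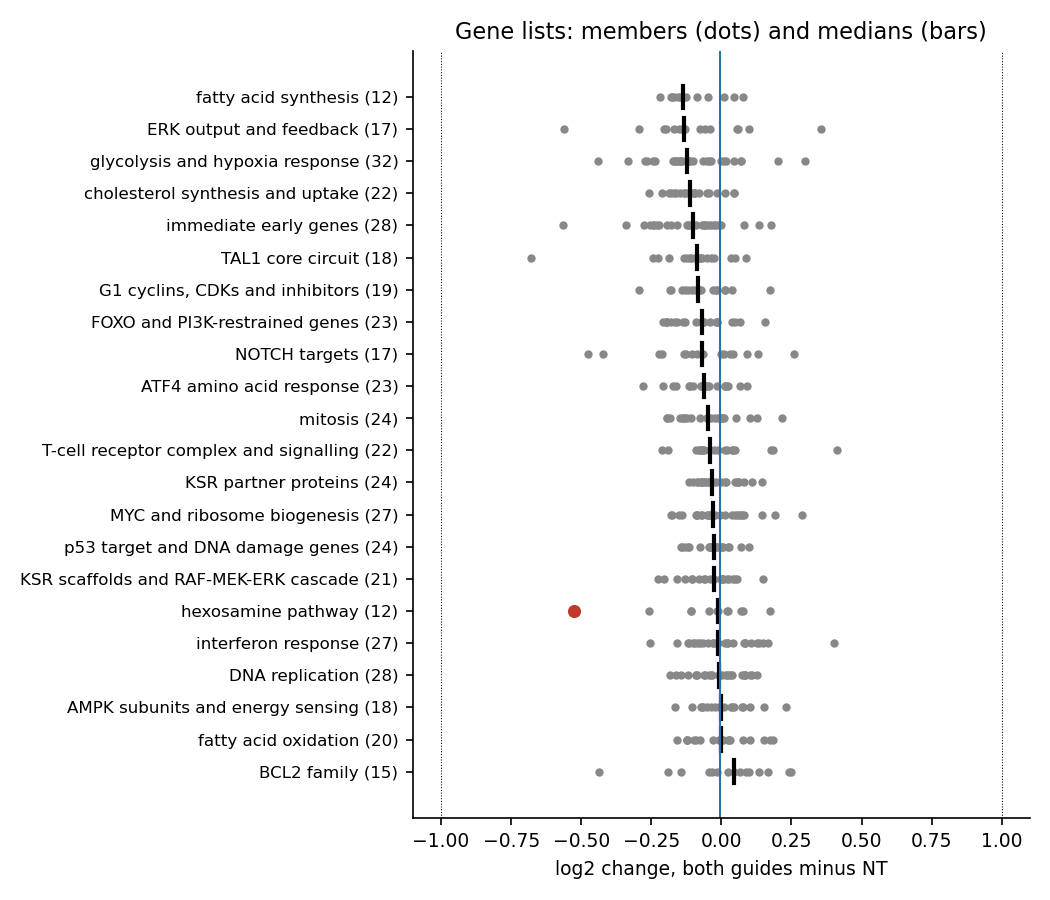
Log2 change of both guides minus NT for each tested member (dots) of the 22 gene lists, with the list median (black bars) and the median of all tested genes (blue line at -0.0044); dotted lines mark 2-fold and numbers in brackets are members tested. The 1 red dot is GNPNAT1 at -0.53, and no list median lies beyond -0.14.

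Genes near KSR2 showed no call. Within 1 Mb of the gene 22 other genes were tested, and their median log2 change was 0.02. Of the 22, 0 had an unadjusted edgeR p under 0.05, against 4.16% of all genes tested. Bounded within 2-fold were 19, against 86.7% of all genes tested. RFC5, a clamp loader subunit and the nearest protein-coding gene tested at 44.6 kb, had 97.0 and 99.5 CPM in NT and 91.0 to 104 CPM in the guide libraries, a change of -0.01 (-0.17 to 0.15). WSB2, VSIG10 and PEBP1, the last of which encodes an inhibitor of RAF kinase signalling, were at -0.05 (-0.21 to 0.11), 0.10 (-0.09 to 0.29) and 0.05 (-0.13 to 0.23). On the other side FBXO21 was at 0.04 (-0.12 to 0.20), TESC at -0.08 (-0.24 to 0.09) and HRK, a BCL2-family death gene, at 0.25 (-0.05 to 0.55). HRK was the 1 of 22 neighbours wholly above NT and 0 lay wholly below, against 4.41% and 5.15% of all genes tested. ENSG00000256071, annotated antisense inside KSR2, had 2.17 and 1.67 CPM in NT and 1.23 to 2.13 CPM in the guide libraries, with a change of -0.08 (-0.52 to 0.37). It was not called where KSR2 was, and no label says whether counting was stranded.

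Markers of the labelled cell type were present. The summed level of 11 T-lymphoblast markers was 2129 to 2206 CPM in NT and 1970 to 2245 CPM in the guide libraries. Myeloid markers were all under 1 CPM, with a sum of 0.556 to 0.652 CPM in NT and 0.469 to 0.758 CPM in the guide libraries, and CSF1R was at 0 in all 8. Of 8 erythroid markers 5 were at 0 throughout, while KLF1 stood at 1.12 to 1.14 CPM in NT and 0.900 to 1.38 CPM in the guide libraries. Of 7 epithelial or stromal markers EPCAM and KRT19 were at 0. PECAM1, which some leukocytes also express, stood at 71.5 to 91.7 CPM and COL1A1 at 5.86 to 8.19 CPM. The sum of those 7 was 91.2 to 99.6 CPM in NT and 79.8 to 96.3 CPM in the guide libraries. Of the B-cell markers CD79A, BLK and EBF1 were present in all groups, while MS4A1, CD79B and PAX5 stayed under 0.13 CPM. In bulk RNA, fewer cells of a type and less RNA per cell cannot be told apart.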

How the data were processed

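Polyadenylated RNA of 14 Jurkat libraries was measured. The values are raw counts by Ensembl identifier, as the authors deposited them. The submitters' processing notes name GRCh38, STAR 2.7.11b and DESeq2 1.42.1. How reads were counted, and on which strand, is not stated, which bears on overlapping genes and near-identical copies. Of 61541 genes, 25747 had 0 counts throughout.

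Counts were fitted with edgeR 4.0.16 in R 4.3.3 (TMM, filterByExpr with a minimum count of 10) as 5 group means over all 14 libraries, since NT has 2. The contrast was tested with the quasi-likelihood F test, Benjamini-Hochberg adjusted over 18963 genes at 0.05, and the scripts were tested on simulated data. Intervals are 95% t intervals on 16.6 degrees of freedom. The common biological coefficient of variation was 8.60%. Positions are those of GENCODE 29. The members and lists were chosen with earlier results of these data known. Genes named are KSR2, KSR1, called genes, the 6 of lowest p per direction (at least 5 CPM, groups separate), up to 4 or 2 per list, and neighbours within 1 Mb; other list members were named for their known role after values were seen. A few genes that the rule or lists hold are not reported here. Alternatives were other scalings, filters, groupings and tools, a replicate block and each library left out.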

Additional observations from a re-analysis of the deposited data

Results flagged for a closer look

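GNPNAT1, the acetyltransferase of the hexosamine pathway, differed between the 2 guides in a direct test of one against the other. The log2 level with guide 2 minus guide 1 was -1.12 (SE 0.08, edgeR adjusted p = 6.40e-06, n = 3 and 3 libraries), and the guide 2 libraries were lower in 3 of 3. The part of the guide sequences in this difference was not tested.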

How the results depend on the processing

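KSR2 was called under all 18 alternatives, with log2 changes of -5.60 to -5.47. The count of called genes stayed at 2 to 4 with RLE or upper-quartile factors, a filter of 5 CPM in 2 libraries, only the 8 libraries or the 6 guide libraries as 1 group. It was 41 (18 higher, 23 lower) with no low-count filter, where the fit's degrees of freedom were 322146 against 16.6, 9 with DESeq2, 1 with limma-voom and 1 at an adjusted p under 0.01. Leaving out each library gave 1 to 3 calls: 1 without guide 1 replicate 1, guide 1 replicate 3, guide 2 replicate 1 or guide 2 replicate 2. Without NT replicate 1, RPL39 was called (log2 change 1.17), and without NT replicate 2, HMGB2 (0.87) and TRBJ1-2 (1.58). GNPNAT1 lost its call in every leave-one-out except that of guide 2 replicate 3, and with limma-voom (adjusted p = 0.0682). ENSG00000278996 lost its call with limma-voom (adjusted p = 0.123) and without NT replicate 2, guide 1 replicate 1, guide 1 replicate 3, guide 2 replicate 1 or guide 2 replicate 2 (adjusted p = 0.0553 to 0.975). CCDC28A gained one with upper-quartile factors (adjusted p = 0.0274) and with the 5 CPM filter (0.0497). The replicate block gave 2 calls and an adjusted p of 0.206 for GNPNAT1. Same-number samples had correlations of deviations of -0.06 to 0.24, with 3 of 7 pairs over 0.1. Of 6 guide libraries, 1 was closest to its own number in the other guide. With 2 or 3 libraries per group, these values cannot settle whether the numbers pair the samples.

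Genes bounded within 2-fold numbered 11531 of 11550 with the 5 CPM filter and up to 16781 otherwise, and 14504 to 16313 with a library left out. Directions turned for 8 neighbours of KSR2, none of them called: SPRING1 (-0.0080 with RLE factors, -0.0081 with DESeq2, -0.0059 with the replicate block) and RFC5 (0.0038 with upper-quartile factors, 0.00094 with the 5 CPM filter). With a library left out the ranges were -0.0424 to 0.0524 for SPRING1, -0.0429 to 0.0173 for RFC5, -0.0068 to 0.17 for RNFT2, -0.0131 to 0.0936 for FBXO21, -0.63 to 0.29 for MAP1LC3B2, -0.0718 to 0.0177 for SUDS3, -0.0226 to 0.0535 for TAOK3 and -0.0112 to 0.11 for PEBP1. Without NT replicate 1 the log2 changes of EGR1 and FLCN were -0.14 and 0.13; without NT replicate 2, those of FLCN and PGM3 were 0.35 and 0.09; without guide 1 replicate 3, that of YWHAB was -0.07. List medians, an alternative added after seeing the data, kept their sign under all 17 settings for the cascade, ERK output, immediate early, TAL1, glycolysis, cholesterol, fatty acid synthesis, partner, mitosis, G1, p53, amino acid response, FOXO and T-cell receptor lists, and turned in at least 1 for the other 8. Depth limits genes under 1 CPM, and the 2 NT libraries limit every comparison.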
